A study of Mus musculus with 200 samples.

Results

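Genes of iron uptake, storage and control were followed in whole mouse embryos at embryonic day 11.5 (E11.5). The 10 genes were chosen by symbol, as 10 of the 22033 genes in the expression tables: *Trf*, *Tfrc*, *Tfr2* (listed there under the older symbol *Trfr2*), *Fth1*, *Ftl1*, *Slc40a1*, *Slc11a2*, *Hamp*, *Aco1* and *Ireb2*. Expression was measured by 3SEQ, which sequences the 3′ ends of polyadenylated RNA, in embryos dissected free of placenta and membranes. F1 embryos came from reciprocal crosses of the inbred strains C57BL6/J (B6) and Castaneus (Cast), and N2 embryos from crosses of F1 animals back to B6. The study asked how alleles, stage and the genotype of the mother shape expression in the embryo.

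The 16 F1 embryos, each heterozygous B6/Cast throughout, fell into 4 litters. Of the litters with Cast mothers and B6 fathers (Cast × B6), litter 1 held 4 embryos with 41 to 43 somites and litter 2 held 4 with 46 to 48. Of those with B6 mothers and Cast fathers (B6 × Cast), litter 5 held 5 embryos with 48 to 50 somites and litter 3 held 3 with 58 to 63. A somite number was not recorded for 1 embryo each of litters 1, 2 and 3. The N2 embryos with genotypes numbered 154, 89 with a B6 mother and an F1 father in 17 litters and 65 with an F1 mother and a B6 father in 12 litters, and each was B6/B6 or B6/Cast at any autosomal gene. Somite numbers ran from 42 to 57 in the 147 N2 embryos that have one. Expression was taken as RPM, each gene's reads scaled to the total of reads on genes, and the B6 allele fraction (BAF) as the B6 share of the allele votes, the counts of SNP-bearing reads assigned to B6 or Cast. The total of reads on genes was 15703888 to 38234229 in the F1 embryos and 245220 to 5370322 in the N2 embryos. In whole embryos, fewer cells of a type and less RNA per cell cannot be told apart, and embryos of 1 litter share a mother and a harvest, so that in the F1 comparisons litter and stage cannot be told apart either.

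Iron travels in plasma bound to transferrin (*Trf*), which the fetal liver makes, and enters cells when the transferrin receptor (*Tfrc*) takes it up, above all into red cell precursors. Divalent metal transporter 1 (*Slc11a2*) moves it out of the endosome, ferritin (a shell of *Fth1* and *Ftl1* chains) stores it, and ferroportin (*Slc40a1*) exports it under the control of the liver hormone hepcidin (*Hamp*), whose sensing involves *Tfr2*. The iron regulatory proteins (*Aco1* and *Ireb2*) bind hairpins in mRNAs called iron-responsive elements when iron is scarce. A hairpin in the 5′ UTR then blocks translation, and hairpins in the 3′ UTR of *Tfrc* protect its mRNA from decay.

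Because these hairpins tie the members together, the UTRs of all members were searched for an unpaired C, a loop that reads CAGTGN, and 5 bases on either side of the loop that pair with each other (G-T pairs allowed), on the transcript strand of the GENCODE annotation of mm9. The pattern was found in 4 members, at 7 places. The loops are in capitals. In lower case, the 5 bases on either side of the loop are the stem, the base before the stem is the unpaired C, and the 5 bases at either end are flanking sequence:
Fth1, 5′ UTR, chr19:10057223-10057249, plus strand: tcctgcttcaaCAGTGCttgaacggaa
Ftl1, 5′ UTR, chr7:52715150-52715176, minus strand: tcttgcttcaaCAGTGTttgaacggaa
Slc40a1, 5′ UTR, chr1:45982311-45982337, minus strand: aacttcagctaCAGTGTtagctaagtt
Tfrc, 3′ UTR, chr16:32631306-32631332, plus strand: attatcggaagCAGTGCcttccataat
Tfrc, 3′ UTR, chr16:32631685-32631711, plus strand: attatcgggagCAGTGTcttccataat
Tfrc, 3′ UTR, chr16:32631750-32631776, plus strand: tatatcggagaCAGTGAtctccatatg
Tfrc, 3′ UTR, chr16:32631797-32631823, plus strand: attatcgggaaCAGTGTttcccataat
The pattern was held by 150 of 21846 genes with a UTR (0.687%), by 33 of 19813 in the 5′ UTR (0.167%) and by 117 of 21818 in the 3′ UTR (0.536%). A match is a description of letters, and its absence from the other 6 members says only that these letters are not in the annotated UTRs. The storage and export genes thus carried it at the start of their transcripts and the receptor *Tfrc* near the end.

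Some members are hard to count because their sequence recurs in the genome. Of the 31-base windows of the *Ftl1* transcript (chr7:52713314-52715254 of mm9), 81.98% occur elsewhere in the genome, against 36.8% for *Hamp* (chr7:31727390-31729036), 20.7% for *Fth1* (chr19:10057193-10059582), 2.90% for *Aco1* (chr4:40090114-40146042) and 1.41% for *Slc11a2* (chr15:100218329-100255503). No window was repeated in *Trf* (chr9:103092538-103132774), *Tfrc* (chr16:32609006-32632880), *Tfr2* (chr5:138011079-138028709), *Slc40a1* (chr1:45964915-45982439) or *Ireb2* (chr9:54711562-54760341). The authors discarded reads whose next best placement was nearly as good, so the levels of *Ftl1*, *Hamp* and *Fth1* are uncertain, and reads of *Aco1* are touched near its 3′ end, where 23.2% of windows recur. The mean of *Ftl1* was 24.97 RPM in F1 and 4.23 RPM in N2 embryos, which were sequenced separately and not compared by a test.

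In the N2 embryos, the 56 libraries of 5 of the 14 sequencing lanes (J to N) stood apart from the 98 of lanes A to I. The first principal component, with 53.5% of the variance, separated them fully, and of 10007 genes 3242 were over 2-fold higher and 335 over 2-fold lower in lanes J to N. Both sets held embryos of both mothers (36 and 20 in J to N, 53 and 45 in A to I). Across genes, the correlation with the mean F1 profile was 0.57 to 0.92 in J to N and 0.81 to 0.95 in A to I. Values within the lane sets are therefore given beside the N2 results of the members.

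Several iron genes lay far apart between the lane sets. In lanes J to N the mean level of *Ireb2* was 22.4 times, of *Tfrc* 15.3 times, of *Slc40a1* 8.66 times, of *Tfr2* 6.65 times and of *Aco1* 4.09 times that in lanes A to I, whereas that of *Fth1* was 0.301 times. The medians of the 9 and of the 5 lanes did not overlap for *Tfrc* (1.68 to 4.50 RPM in A to I, 30.8 to 63.7 in J to N), *Ireb2* (2.63 to 5.70 and 26.3 to 107.9), *Slc40a1*, *Tfr2* and *Fth1* (1408 to 2666 and 254 to 716). *Slc11a2* (0.788 times) and *Trf* (0.591 times) moved less, and their lane medians overlapped. Litter mates showed the same spread: in N2 litter 3 of B6 mothers, 8 embryos in lanes A to I had 1.76 to 6.46 RPM of *Tfrc* and 3 in lanes J to N had 26.6 to 58.3. *Tfrc*, *Aco1* and *Ireb2* reached the mean of 5 RPM required for the tests only through lanes J to N.

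**Figure D1:**
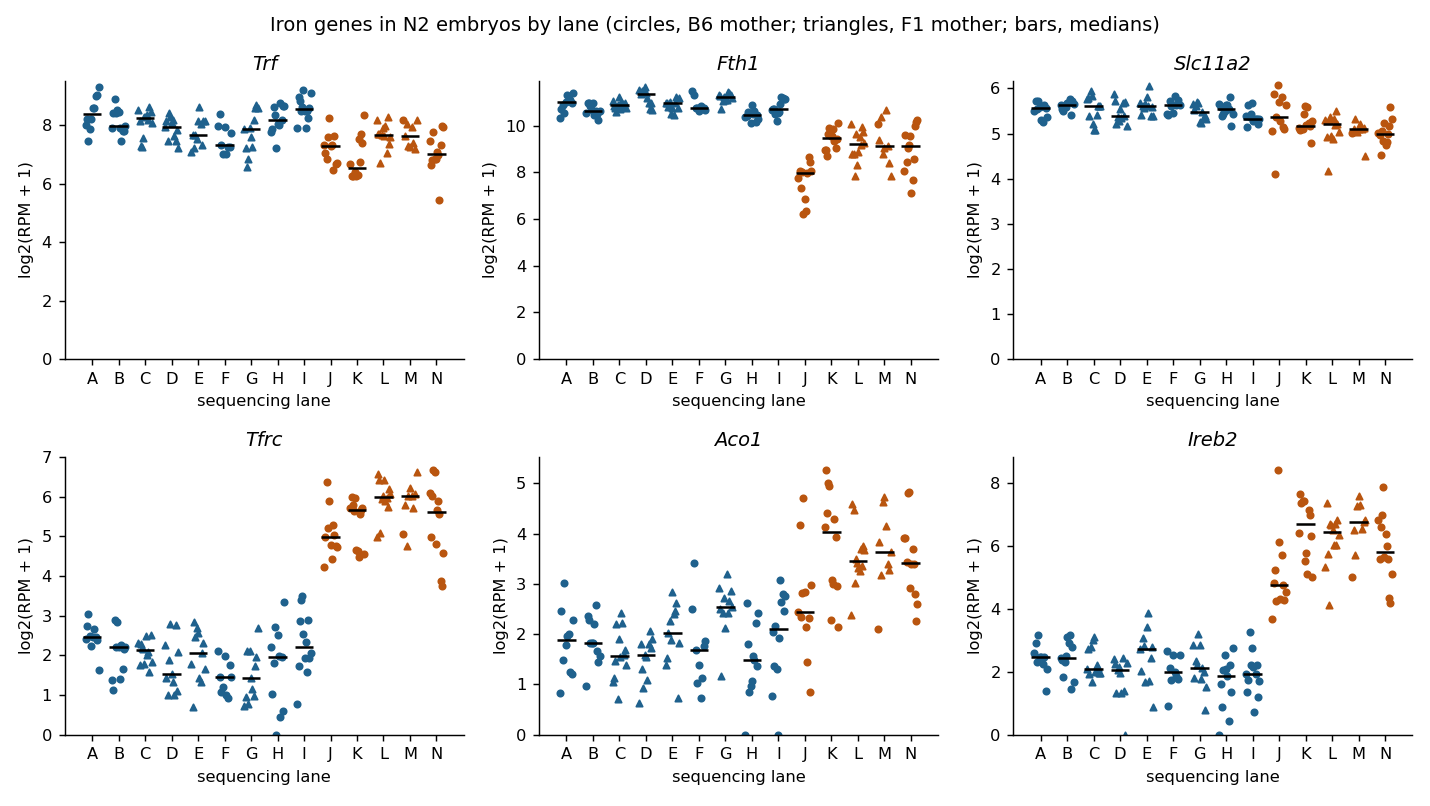
Expression of 6 iron genes in the 154 N2 embryos by sequencing lane, as log2(RPM + 1); circles are embryos of B6 mothers, triangles embryos of F1 mothers and bars lane medians. In lanes J to N (orange) the points of *Tfrc* lie above, those of *Ireb2* nearly all above and those of *Fth1* mostly below those of lanes A to I (blue), whereas *Slc11a2* and *Trf* overlap.

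Marker lists were read beside the iron genes. All 12 liver (hepatoblast) markers and the 12 of 14 erythroid markers found in the tables were detected in F1 embryos, and of 8 placental markers 3 (*Prl3d1*, *Prl2c2* and *Ctsq*) were at 0 and the sum of the 8 was at most 0.869 RPM in any F1 embryo. From litter 1 to litter 2 to litter 5 to litter 3 the median sum of the liver markers was 731, 1451, 1437 and 3585 RPM, and that of the erythroid markers 100300, 62460, 76110 and 32980 RPM. The older litter of each cross thus had more RNA of liver markers and less of erythroid markers than the younger, with no overlap between litters, and macrophage markers had medians of 172, 215, 244 and 283.5 RPM. The erythroid sum was led by the globin genes *Hbb-y* and *Hba-x*, and the paper lists *Hbb-y* among the fetal globins that give way to adult forms. A lower sum therefore need not mean fewer erythroid cells. The part of the marker lists in the changes of the iron genes was not tested.

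The older litter of each cross was compared with the younger to ask how iron genes differ with stage. *Trf* and *Tfrc* were higher and *Slc11a2* was lower in the older litter of both crosses, *Fth1* was lower in the older Cast × B6 litter, and *Aco1* was lower in the older B6 × Cast litter. There were 6 members that passed the filter of a mean of 5 RPM and 4 of these were called in each cross, by edgeR's quasi-likelihood test with Benjamini-Hochberg q under 0.05 over all genes. Of all 9728 genes tested, 35.8% were called in Cast × B6 and 16.0% in B6 × Cast, so that calls were frequent in general. The median log2 change of the 6 members was -0.25 in Cast × B6 and 0.47 in B6 × Cast, beside -0.02 and 0.04 over all genes tested.

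*Trf*, the carrier of plasma iron, had 89.1, 122, 138.5 and 139 RPM in the embryos of litter 1 and 324, 300.0, 287 and 316 RPM in those of litter 2. In B6 × Cast it had 333, 361, 494.5, 335 and 308 RPM in litter 5 and 776, 845 and 706 RPM in litter 3. The litters of a cross did not overlap, and litters 2 and 5, nearest in stage, did. The log2 fold change with stage was 1.27 (SE 0.14, edgeR adjusted p = 5.31e-05) in Cast × B6 and 0.96 (SE 0.14, adjusted p = 0.000815) in B6 × Cast.

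*Tfrc*, the receptor for loaded transferrin, had 2.90, 2.67, 2.87 and 2.43 RPM in litter 1 and 6.11, 5.15, 7.70 and 12.2 RPM in litter 2. Litter 5 had 7.50, 5.72, 7.64, 7.26 and 4.84 RPM and litter 3 had 12.4, 11.3 and 13.8 RPM. Again the older litter lay above the younger without overlap in both crosses. The log2 fold changes were 1.46 (SE 0.25, edgeR adjusted p = 0.000589) and 0.81 (SE 0.24, adjusted p = 0.0346), and the latter lost its call when any one of 5 embryos was left out (largest adjusted p = 0.122). Erythroid precursors are a main site of *Tfrc*. The erythroid marker sum, led by the globins *Hbb-y* and *Hba-x*, was lower in the older litters, as given above. It need not follow the number of precursors, and its part in the difference was not tested.

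*Tfr2*, an iron sensor of liver and erythroid cells, lay between 0.609 and 2.99 RPM in the F1 embryos and was not tested under the filter. Its mean was 1.10 ± 0.747 RPM in litter 1 and 1.73 ± 0.278 in litter 2 (SD, n = 4 each), with overlap. It was 2.00 ± 0.644 RPM in litter 5 (SD, n = 5) and 2.77 ± 0.190 in litter 3 (SD, n = 3), also with overlap. Without the filter the differences had adjusted p = 0.321 and 0.561 by edgeR (22.2% and 11.2% of genes called).

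Of the storage genes, *Fth1* (ferritin heavy chain) had 1416, 1766, 2206 and 1859 RPM in litter 1, 1782, 1109, 1224 and 1421 in litter 2, 1313, 1482, 1372, 1154 and 1134 in litter 5 and 1555, 1644 and 1372 in litter 3. All 4 litters overlapped with their partner. *Fth1* was called lower in litter 2 at a log2 fold change of -0.45 (SE 0.15, edgeR adjusted p = 0.0315), a call lost when any one of 5 embryos was left out (largest adjusted p = 0.0911), and not in B6 × Cast (0.12, SE 0.15, adjusted p = 0.624). *Ftl1* (ferritin light chain) varied within litters, from 6.73 to 30.4 RPM in litter 5 alone, and passed in neither cross (log2 fold change -0.33, SE 0.34, adjusted p = 0.471, and 0.85, SE 0.34, adjusted p = 0.103).

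*Slc40a1* (ferroportin, the exporter) lay between 0.638 and 1.54 RPM, below the filter. Its means were 0.764 ± 0.225 and 1.00 ± 0.235 RPM in litters 1 and 2 (SD, n = 4 each). In B6 × Cast they were 0.840 ± 0.176 in litter 5 (SD, n = 5) and 1.36 ± 0.194 in litter 3 (SD, n = 3), where the litters did not overlap but the unfiltered test gave adjusted p = 0.167.

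*Slc11a2* (endosomal iron import) had 44.1, 43.9, 45.8 and 44.6 RPM in litter 1 and 37.02, 38.98, 42.6 and 37.4 RPM in litter 2, and 48.2, 50.5, 54.5, 53.4 and 50.3 RPM in litter 5 and 44.9, 47.5 and 45.9 RPM in litter 3. The older litter lay below the younger without overlap in both crosses, by a log2 fold change of -0.27 (SE 0.08, edgeR adjusted p = 0.0171) and -0.28 (SE 0.08, adjusted p = 0.0348). The call in B6 × Cast was lost when any one of 6 embryos was left out (largest adjusted p = 0.111).

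*Hamp* (hepcidin) was scarcely detected, with 0 reads in 8 of the 16 F1 embryos and at most 2 reads in any other. No difference with stage was detectable at this depth. In N2 embryos its median was 0 RPM and its highest level 0.969 RPM.

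The regulators differed from each other. *Aco1* (iron regulatory protein 1, an aconitase when iron is present) had 20.2, 18.7, 23.9 and 16.5 RPM in litter 1 and 20.7, 18.1, 16.4 and 16.0 in litter 2, which overlapped (log2 fold change -0.23, SE 0.13, edgeR adjusted p = 0.185). In B6 × Cast it had 16.3, 11.6, 12.7, 13.7 and 14.0 RPM in litter 5 and 8.47, 8.27 and 8.76 in litter 3, without overlap. It was lower there by a log2 fold change of -0.80 (SE 0.14, adjusted p = 0.00216), a call kept whichever embryo was left out. *Ireb2* (iron regulatory protein 2) had 2.78 to 3.598 RPM in litter 1 and 5.10 to 6.42 in litter 2, without overlap, and was called higher only without the filter (log2 fold change 0.77, SE 0.17, adjusted p = 0.00487, with 22.2% of 18796 genes called). Its 2.84 to 5.56 RPM in litter 5 overlapped with 4.81 to 6.62 in litter 3.

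**Figure D2:**
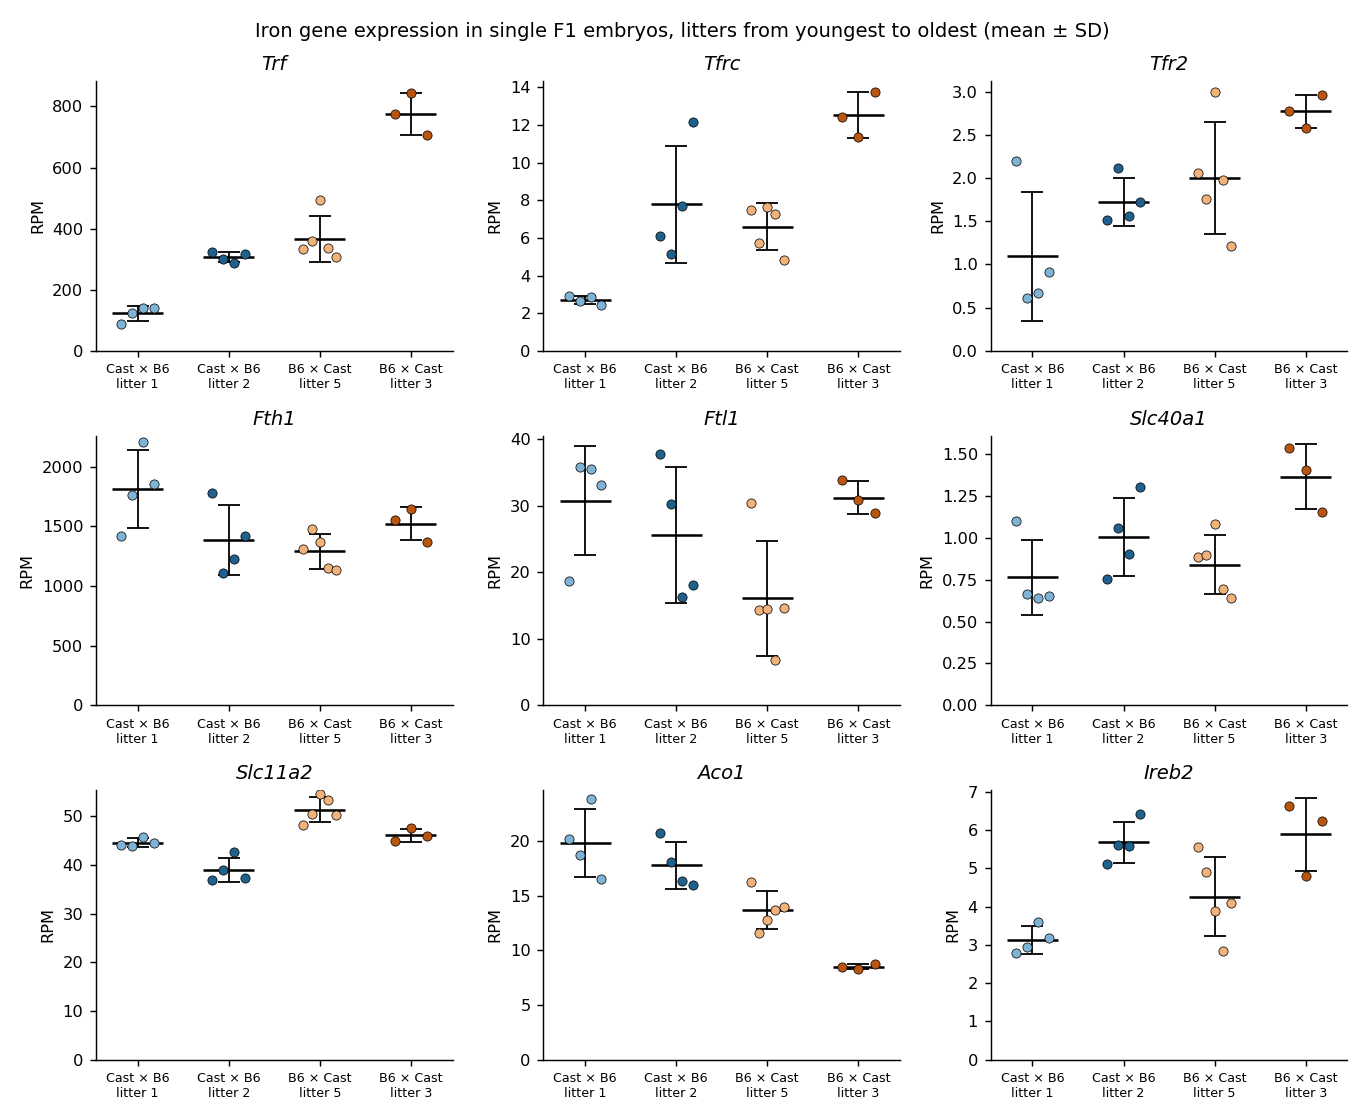
RPM of 9 iron genes in single F1 embryos, with 1 point per embryo and the litter mean ± SD in black; blue litters are Cast × B6 and orange litters B6 × Cast, lighter for the younger litter. *Trf* and *Tfrc* rise and *Slc11a2* falls from the younger to the older litter of each cross, and *Aco1* is lowest in litter 3, at 8.27 to 8.76 RPM.

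Of 51 other iron genes in the tables, 27 were tested in the F1 embryos. With stage, 13 were called in Cast × B6 (7 higher, 6 lower, against 35.8% of all genes) and 4 in B6 × Cast (3 higher, 1 lower, against 16.0%). The plasma heme carrier *Hpx*, made by the liver, was higher in both (log2 fold change 1.27, SE 0.23, and 0.97, SE 0.22, edgeR adjusted p = 0.000771 and 0.00988). *Lcn2*, which binds iron-carrying siderophores, had a mean of 1.39 ± 0.968 RPM in litter 1 and 7.96 ± 1.16 in litter 2 (SD, n = 4 each, adjusted p = 0.00137), and the mitochondrial iron importer *Slc25a28* and the ferroxidase *Heph* were also higher in litter 2. The iron chaperone *Pcbp2* was lower there by a log2 fold change of -0.80 (SE 0.11, adjusted p = 0.000198), as were *Neo1*, *Hmox2* and *Epas1*. In the older B6 × Cast litter the erythroid hormone *Fam132b* (erythroferrone) was higher (0.69, SE 0.15, adjusted p = 0.00775), with the lipocalin receptor *Slc22a17*, and *Smad7*, an inhibitor of the signals that raise hepcidin, was lower (-0.94, SE 0.17, adjusted p = 0.00254).

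Reciprocal crosses were compared in litters 2 (Cast × B6) and 5 (B6 × Cast), which also served in the comparisons above. *Slc11a2* alone of the 6 members tested was called, higher in B6 × Cast, in a comparison that called 16.2% of all genes. All 5 embryos of litter 5 (48.2 to 54.5 RPM) lay above all 4 of litter 2 (37.02 to 42.6 RPM), by a log2 fold change of 0.43 (SE 0.08, edgeR adjusted p = 0.00292), and the call was kept whichever embryo was left out. *Trf* (0.29, SE 0.13, adjusted p = 0.157), *Aco1* (-0.35, SE 0.12, adjusted p = 0.0715), *Tfrc* (-0.22, SE 0.23, adjusted p = 0.539), *Fth1* (-0.08, SE 0.14, adjusted p = 0.757) and *Ftl1* (-0.64, SE 0.32, adjusted p = 0.187) did not pass. Without embryo 1 of litter 5, which had 30.4 RPM of *Ftl1*, *Ftl1* and *Aco1* passed too, at -0.98 and -0.40 (adjusted p = 0.03 and 0.0493, with 17.7% of genes called). Of the other iron genes 2 of 27 were called, *Slc22a17* and the ferrireductase *Steap3*, both higher in B6 × Cast (0.48 and 0.60). Cross, litter and mother cannot be told apart here. Per the labels, litter 2 was sequenced in the runs hs1 and hs2 and the other litters in gaIIx and hs1, so that the run cannot be told apart from litter 2 either, here or in the stage comparison of Cast × B6.

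The allele fraction asks whether both alleles of a gene follow stage alike, since both share the cells of 1 embryo. In Cast × B6 the BAF of *Trf* was 0.554, 0.535, 0.552 and 0.55 in litter 1 and 0.518, 0.510, 0.512 and 0.511 in litter 2, from 790 to 2616 votes per embryo. The litters did not overlap. In B6 × Cast it was 0.512, 0.506, 0.492, 0.513 and 0.514 in litter 5 and at most 0.505 in litter 3 (median 0.494), from 2464 to 7811 votes, with overlap. The B6 share was thus highest in the youngest litter and near equality in the others.

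With limma on the logit of the BAF over 5628 genes, none of the 4 members with 20 votes in every embryo was called. In Cast × B6, where 1.31% of genes were called, the difference for *Trf* was -0.20 (SE 0.06, log2 odds, adjusted p = 0.119) and for *Ftl1* 2.48 (SE 0.82, adjusted p = 0.194). With the votes as weights both passed (adjusted p = 0.0404 and 0.0432, with 2.43% of genes called). In B6 × Cast no gene of 5628 was called (0%, and 0.0711% with votes as weights), and the difference for *Trf* was -0.06 (SE 0.06, adjusted p = 0.958). *Aco1* had the smallest unadjusted p of the 4 there (0.0145), from a mean of 0.397 ± 0.0680 in litter 5 (SD, n = 5) to 0.518 ± 0.0273 in litter 3 (SD, n = 3), with adjusted p = 0.678 by limma.

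Between the crosses, the BAF was compared over embryos by a two-sided exact permutation test, 8 against 8, for the 8 members with votes in every embryo. The mean BAF of *Trf* was 0.504 ± 0.00943 with B6 mothers and 0.530 ± 0.0197 with Cast mothers (exact p = 0.00357), and that of *Slc11a2* 0.474 ± 0.0160 and 0.524 ± 0.0447 (exact p = 0.0106, SD, n = 8 each). The other 6 had exact p between 0.270 and 0.786. The test treats embryos as independent, but those of each cross came from 2 litters, and the Cast × B6 litters were the younger ones. Cross, litter and stage cannot be told apart in it, nor can the run of litter 2. For *Trf*, litters 2 and 5, nearest in stage, had 0.513 ± 0.00340 (SD, n = 4) and 0.507 ± 0.00937 (SD, n = 5), and overlapped. For *Slc11a2* they had 0.537 ± 0.0579 and 0.479 ± 0.0118, and 3 embryos of litter 2 lay above and 1 below all of litter 5. Binomial tests of pooled votes, which require opposite higher alleles in the crosses, called 47 of 11598 genes (0.405%) and none of 8 members.

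**Figure D3:**
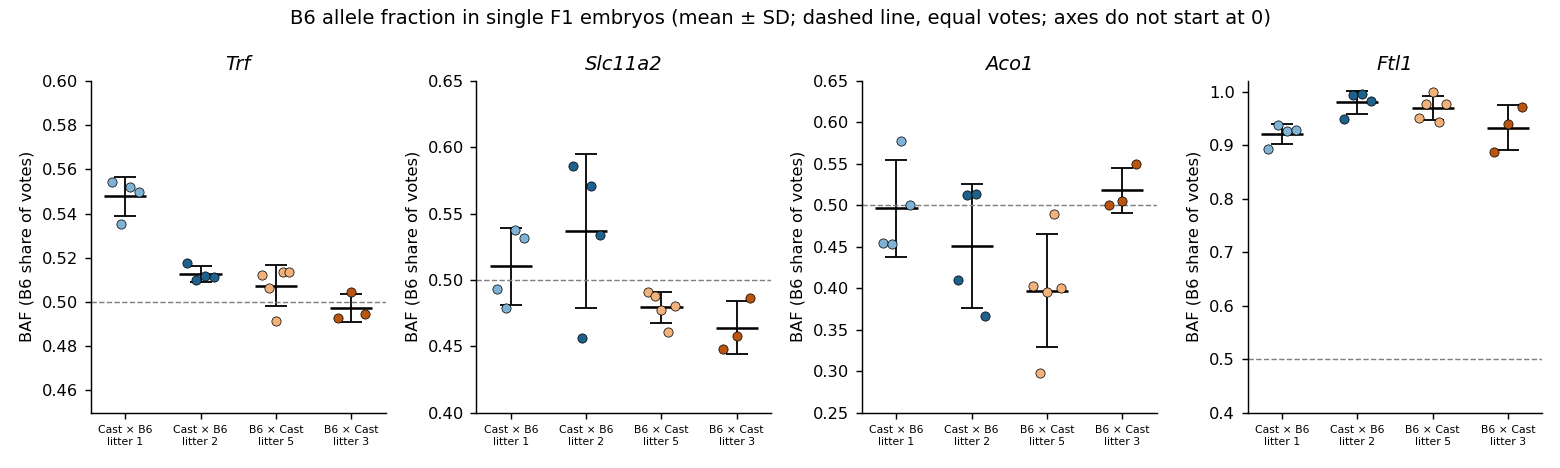
BAF of 4 iron genes in single F1 embryos, with litter mean ± SD; the dashed line marks equal votes and the axes do not start at 0. The *Trf* BAF is 0.535 to 0.554 in litter 1 and 0.510 to 0.518 in litter 2, and that of *Ftl1* is above 0.88 in every embryo.

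*Ftl1* was the only member with allele-specific expression, in a paired test of B6 and Cast votes over F1 and heterozygous N2 embryos that called 19.1% of 9084 genes. Its B6 share was 0.887 to 1.00 in the 16 F1 embryos, and 0.944 of the pooled votes in both crosses alike (5972 B6 and 353.5 Cast votes). In heterozygous N2 embryos it was 0.967, from 178 B6 and 6 Cast votes. The Bonferroni-adjusted p was 0.000115 over 69 embryos, and 0.0148, above the threshold of 0.01, without lanes J to N (18.4% of genes called). It passed in F1 embryos alone (adjusted p = 0.00039, 12.2% called) and in N2 heterozygotes alone (adjusted p = 7.91e-07, 16.7% called), and was not tested where 100 votes per cross were required (25.5% called). As stated, 81.98% of the windows of this transcript recur in the genome, and the part of mapping in its allele share was not tested.

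The other 7 members with enough votes had pooled BAFs of 0.458 to 0.553, and none was called: 0.507 for *Trf*, 0.503 for *Slc11a2*, 0.477 for *Tfrc*, 0.467 for *Tfr2*, 0.553 for *Slc40a1*, 0.468 for *Aco1* and 0.458 for *Ireb2*. For *Ireb2* this pools lane sets on opposite sides of equal votes. In N2 heterozygotes its BAF was 0.2973 in lanes A to I (22 B6 and 52 Cast votes). In lanes J to N it was 0.6237 (62.98 and 38 votes). Without lanes J to N the pooled BAF of *Ireb2* was 0.3884 (paired test, unadjusted p = 0.0001169), not called after adjustment. *Tfrc* had 0.3537 in lanes A to I and 0.4481 in J to N. The other members differed less than *Ireb2* between the lane sets. *Fth1* had no vote in any embryo, and *Hamp* 9 votes in all F1 embryos. Among the other iron genes 6 of 27 were called, all with the Cast allele higher. The metal importer *Slc39a14* had a BAF of 0.144, the ferrireductase *Steap3* 0.286, the iron-sulfur cluster scaffold *Iscu* 0.303 and the endosomal sorting gene *Snx3* 0.447.

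In the N2 embryos, expression was correlated with somite number. *Trf* was the only one of 6 members called, rising with stage, in a test that called 22% of 10007 genes (14.1% with a positive rho). Among embryos with 42 to 46, 47 to 49 and 50 to 57 somites, the *Trf* median was 152, 229 and 288 RPM (n = 39, 40 and 68), within ranges of 42.3 to 357.5, 75.6 to 395 and 103 to 596 RPM. Spearman's rho was 0.52 and Pearson's r was 0.54 (permutation p = 1e-05 each, the smallest that 100000 resamples can give, q = 9.85e-10, n = 147), and r was 0.52 without the 2 embryos farthest in stage.

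The rise of *Trf* was seen in both lane sets. In lanes A to I the medians were 180.5, 246 and 348 RPM and rho was 0.63 (permutation p = 1e-05, n = 92), and in lanes J to N they were 102, 153 and 200 RPM (199.6) and rho was 0.54 (permutation p = 4e-05, n = 55). Within lanes A to I it was 0.79 in 49 embryos of B6 mothers and 0.48 in 43 of F1 mothers. Averaging by litter (29 litters) left rho at 0.57 but lost the call (q = 0.0656, with 1.74% of genes called).

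The liver marker sum moved with *Trf*. Its median in lanes A to I was 809, 1016 and 1485 RPM in the same stage groups, and over the 154 embryos rho between *Trf* and this sum was 0.84 (0.85 in A to I, 0.84 in J to N), a correlation of values from the same libraries. With the macrophage sum it was 0.57 (0.42 in A to I, 0.51 in J to N) and with the erythroid sum 0.18 (-0.14 and 0.02). The part of liver size in the rise of *Trf* was not tested.

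The other 5 members had rho between -0.11 and 0.10 and were not called over all lanes. In lanes A to I, *Slc11a2* fell with stage (rho = -0.32, permutation p = 0.00196, q = 0.0148, with 21.5% of genes called), from a median of 48.7 to 45.9 to 42.5 RPM. In lanes J to N its rho was 0.06 (permutation p = 0.657, n = 55, with 9.35% of genes called). It was also called lower with stage in embryos of F1 mothers (rho = -0.34, 23.1% of genes called) and in flowcell 1 (-0.36, 15.6% called), where *Fth1* was called higher (0.40, q = 0.00847). The embryos of F1 mothers were in both lane sets. Within lanes A to I the rho of *Slc11a2* was -0.30 under F1 mothers (permutation p = 0.0529) and -0.36 under B6 mothers (permutation p = 0.0103). *Tfrc* had a positive rho in both sets (0.23 in A to I, permutation p = 0.0250, q = 0.0912, and 0.21 in J to N, permutation p = 0.119), and with the mother and the lane set as terms in edgeR it rose by 0.06 log2 units per somite (adjusted p = 0.0230, with 44.8% of genes called). Within lanes A to I the rho of *Tfrc* was 0.43 in 49 embryos of B6 mothers (permutation p = 0.00231). In 43 embryos of F1 mothers there it was -0.01 (permutation p = 0.951). *Fth1* had rho of 0.19 and -0.14 in the 2 sets, *Aco1* 0.20 and -0.11, and *Ireb2* -0.14 and -0.06, none called. The counts of *Tfr2*, *Ftl1*, *Slc40a1* and *Hamp* were too low for the filter, and without it rho was 0.00, 0.03, -0.07 and 0.08, none called among 12.7% of genes.

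**Figure D4:**
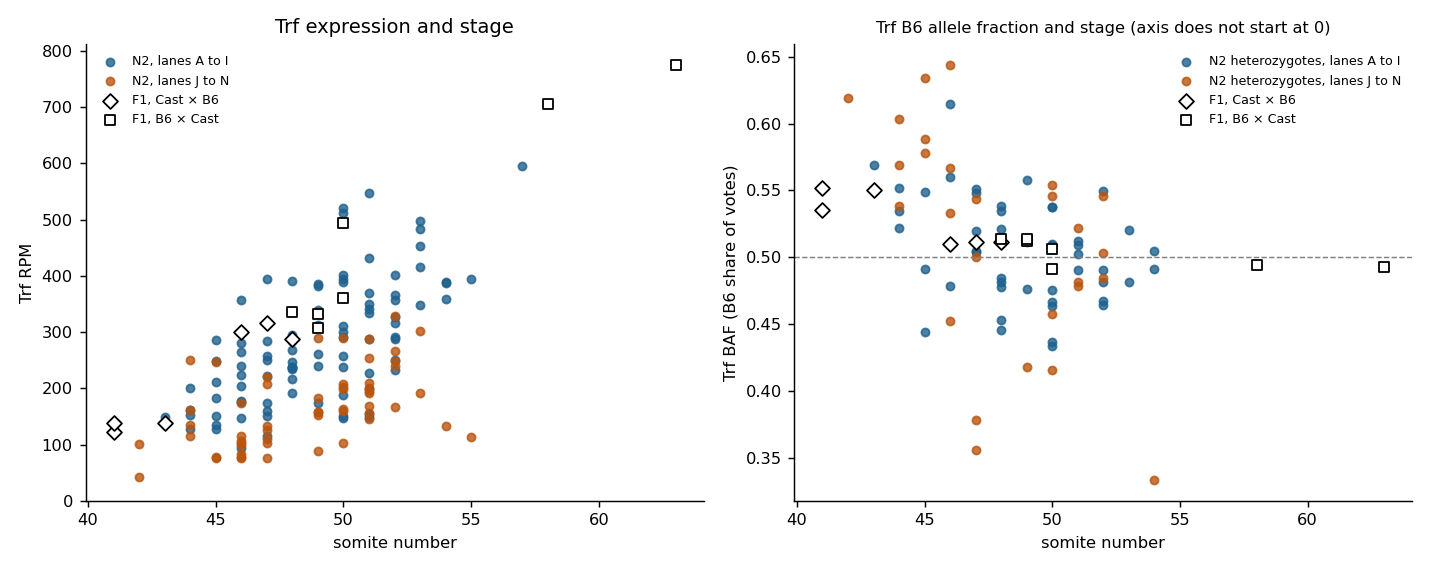
*Trf* RPM (left) and *Trf* BAF in heterozygous embryos with at least 20 votes (right, axis not from 0) against somite number, 1 point per embryo with a recorded somite number. RPM rises in N2 embryos of both lane sets, with lanes J to N (orange) lower, and the BAF falls from above 0.5 in the youngest embryos.

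Among the other iron genes 8 of 29 were called with stage in N2 embryos, 5 up and 3 down. The heme transporter *Slc48a1* had a rho of 0.46 (0.63 in A to I and 0.47 in J to N, called in both) and *Lcn2* of 0.45 (0.46 and 0.43, called in both), and *Hpx* (0.27) and *Steap3* (0.22) followed. *Sfxn1* (-0.24) and *Smad4* (-0.22) were among those that fell. Of the genes named, *Hpx*, *Steap3* and *Smad4* were not called within either lane set.

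Next, embryos of F1 mothers were compared with embryos of B6 mothers. No member passed the Mann-Whitney test at a Bonferroni-adjusted p under 0.01, which called 5.03% of 9733 genes. *Fth1* came nearest, with a lowest, median and highest level of 74, 1407 and 2866 RPM in 89 embryos of B6 mothers and 231, 1837 and 3211 RPM in 65 of F1 mothers. Its ratio of means was 0.42 on the log2 scale, with an unadjusted p = 0.000265 and an adjusted p = 1. By other rules it passed: q = 0.00184 with Benjamini-Hochberg adjustment (31.6% of genes called), and 0.44 (adjusted p = 0.0410) by edgeR (25.4% called), 0.49 with somite number as a term (adjusted p = 0.0225, 30.6% called) and 0.45 (adjusted p = 0.0241) by DESeq2 (27.9% called).

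The lane sets bear on this comparison because they held the mothers in unequal shares. Every lane but M held embryos of only B6 or only F1 mothers, so a split by lane set does not separate mother from lane. Among lanes A to I the lane medians of *Fth1* ran from 1408 to 2666 RPM. Within lanes A to I *Fth1* had medians of 1679 and 2066 RPM under B6 and F1 mothers, and within J to N of 496 and 576 RPM, so that it was higher under F1 mothers in both (0.29 and 0.30 on the log2 scale, adjusted p = 0.106 and 1, Mann-Whitney with Bonferroni, with 13.4% and 0.0103% of genes called). With stage and lane set as terms, edgeR gave 0.31 (adjusted p = 0.0109, with 46.7% of genes called). Averaged by litter it was 0.62 (adjusted p = 1, 0 of 9733 genes called). By flowcell it was 0.21 in the first and -0.54 in the second (unadjusted p = 0.00289 and 0.113, adjusted p = 1 in both). In the second, all embryos of F1 mothers were in lanes J to N, whereas those of B6 mothers were also in lanes H and I, so that mother and lane set cannot be told apart there.

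For the remaining members no difference passed. *Trf* medians were 236 and 232 RPM, *Slc11a2* 42.3 and 40.9, *Tfrc* 5.74 and 3.80, *Aco1* 3.86 and 4.29 and *Ireb2* 5.83 and 5.61, all with adjusted p = 1. In lanes A to I the differences were 0.01 for *Slc11a2*, 0.11 for *Aco1* and 0.16 for *Ireb2* on the log2 scale, and in lanes J to N -0.14, 0.11 and 0.27 (adjusted p = 1 in all). For *Trf* the lane sets went opposite ways, with means of 317 and 250 RPM in lanes A to I and 149 and 206.5 RPM in lanes J to N (unadjusted p = 0.00966 and 0.00161, adjusted p = 1 in both). The median somite number under B6 and F1 mothers was 49 and 49 in lanes A to I, but 47 and 50 in lanes J to N. In every comparison of mothers within lanes J to N, mother and stage are therefore not separated. In the second flowcell alone *Tfrc* was higher under F1 mothers by 1.19 (adjusted p = 0.00886, with 0.247% of genes called), where mother and lane set cannot be told apart, as stated, and in the first the difference was -0.20 (adjusted p = 1, 2.18% called). Within lanes J to N, *Tfrc* medians were 37.2 and 63.7 RPM (difference of means 0.56, adjusted p = 1) and within A to I 3.34 and 2.68 (-0.30, adjusted p = 1). Of 27 other iron genes, *Hpx* and *Smad4* were called higher under F1 mothers (0.81 and 0.95 on the log2 scale, adjusted p = 0.00132 and 0.00273), *Smad4* also within lanes A to I. *Hpx* was called in neither lane set (0.79 in A to I, adjusted p = 0.245, and 0.76 in J to N, adjusted p = 1).

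The calls in a test of the difference between the slopes on somite number under the mothers varied with how the lanes were handled. Over all lanes edgeR called 5 of 6 members, with 46.1% of 10007 genes called, and DESeq2 also 5 (52.1% of genes called). The slope under F1 mothers minus that under B6 mothers was -0.13 (SE 0.04) for *Trf*, 0.36 (SE 0.13) for *Tfrc*, -0.10 (SE 0.03) for *Slc11a2*, 0.18 (SE 0.08) for *Aco1* and 0.38 (SE 0.15) for *Ireb2*, in log2 units per somite. With the lane set as a term 16.9% of genes and only *Slc11a2* (-0.05, adjusted p = 0.0437) were called, with the flowcell 36.6% and *Trf*, *Slc11a2* and *Fth1*, and in lanes A to I alone 8.88% of genes and no member. Of the 5 called over all lanes, *Tfrc*, *Aco1* and *Ireb2* turned sign with the lane set as a term and in lanes A to I.

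The allele balance of *Trf* also moved with stage in N2 heterozygotes. The BAF of *Trf* fell with somite number (rho = -0.43, permutation p = 0.00014, r = -0.44, permutation p = 7e-05, q = 0.0326, n = 77), one of 10 genes called of 3342 (0.299%) at q under 0.1, and r was -0.45 without the 2 embryos farthest in stage. Pooled over embryos, it was 0.545, 0.499 and 0.490 with 42 to 46, 47 to 49 and 50 to 57 somites. The medians per embryo were 0.560, 0.504 and 0.491, and the groups overlapped, with lows of 0.444, 0.356 and 0.333 and highs of 0.644, 0.558 and 0.554.

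Within lanes A to I the pooled values were 0.5264, 0.501 and 0.487 (rho = -0.34, permutation p = 0.0153, n = 49), and within J to N 0.5745, 0.488 and 0.504 (rho = -0.58, permutation p = 0.00141, n = 28). The direction was the same in both, but *Trf* was not called among all genes in either (q = 0.486 and 0.150, with 0.141% and 0.272% of genes called). In embryos of B6 mothers rho was -0.59 (q = 0.00746, with 2.54% of genes called) and in those of F1 mothers -0.32 (q = 0.562, 0.0903% called). With at least 50 votes (0.255% of genes called), with lane means taken out (0.0598%), over litter means (0.0299%) and in the first (0.0381%) and second (0.0925%) flowcell rho was -0.41, -0.38, -0.52, -0.37 and -0.52, and *Trf* was not called. In B6/B6 embryos the pooled BAF of *Trf* was 0.998.

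*Slc11a2*, the other member tested, had a BAF rho of 0.24 (permutation p = 0.114, q = 0.682, n = 43), with pooled BAFs of 0.474, 0.543 and 0.544 in the stage groups. In lanes A to I its rho was 0.19 (q = 0.811, n = 36), and in lanes J to N too few embryos had 20 votes. *Tfrc* (419 votes over 83 heterozygotes), *Tfr2* (258), *Slc40a1* (181), *Aco1* (119), *Ireb2* (175) and *Ftl1* (184) had too few votes to follow by stage. No other iron gene of 11 tested was called.

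Finally, each N2 embryo's own genotype at the gene was compared with its expression, after lane, sex, somite number and 15 principal components had been regressed out. *Slc11a2* was called, higher in heterozygotes, in a rank-sum test that called 28.6% of 9733 genes at q under 0.01. Its lowest, median and highest levels were 16.3, 45.7 and 65.1 RPM in 72 heterozygotes and 16.9, 39.7 and 66.1 RPM in 82 B6/B6 embryos. The corrected difference was 0.10 on the log2(RPM + 1) scale (q = 0.00751). In lanes A to I the medians were 48.1 and 42.4 RPM and the difference 0.14 (q = 0.000523, 24.1% of genes called), and in lanes J to N 35.9 and 33.1 RPM and 0.01 (q = 0.839, 7.85% called). It was 0.03 under B6 mothers (q = 0.563, 18% called), 0.11 under F1 mothers (q = 0.0171, 12.1% called) and without the correction q was 0.0136 (12.2% called), none of them past the threshold.

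The uncorrected mean of *Slc11a2* in heterozygotes was 1.11 times that in B6/B6 embryos. If the B6 allele is expressed equally in both genotypes, its F1 BAF of 0.494 corresponds to a ratio of 1.01 and its BAF of 0.527 in heterozygous N2 embryos to 0.949. The differences between these ratios were not tested. The other 5 members tested had corrected differences of 0.01 to 0.06 and q of 0.296 to 0.942. For *Trf* the means were 236 ± 121 RPM in 82 heterozygotes and 252.5 ± 105 in 72 B6/B6 embryos (SD).

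*Ftl1* entered only with the lower filter of a mean of 1 RPM, and was then called lower in heterozygotes (-0.45, q = 4.85e-05, with 24.9% of 12722 genes called). Its median was 2.34 RPM in 64 heterozygotes and 4.07 RPM in 90 B6/B6 embryos (2.17 and 3.54 in lanes A to I, 2.87 and 6.40 in J to N). The ratio of means was 0.507, and 0.636 and 0.449 in the lane sets, beside 0.530 from its F1 BAF and 0.517 from its N2 BAF. In both lane sets, then, embryos with 1 Cast allele had fewer *Ftl1* reads, with overlap between genotypes. Levels and votes come from reads kept by the same mapping filter, so these ratios are not independent. The part of mapping in them was not tested. *Hamp* lies on the same chromosome and 87.7% of embryos had the same genotype at both, and *Trf* and *Ireb2* shared their genotype in 79.2%, so that neighbouring loci are not separated by these tests.

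**Figure D5:**
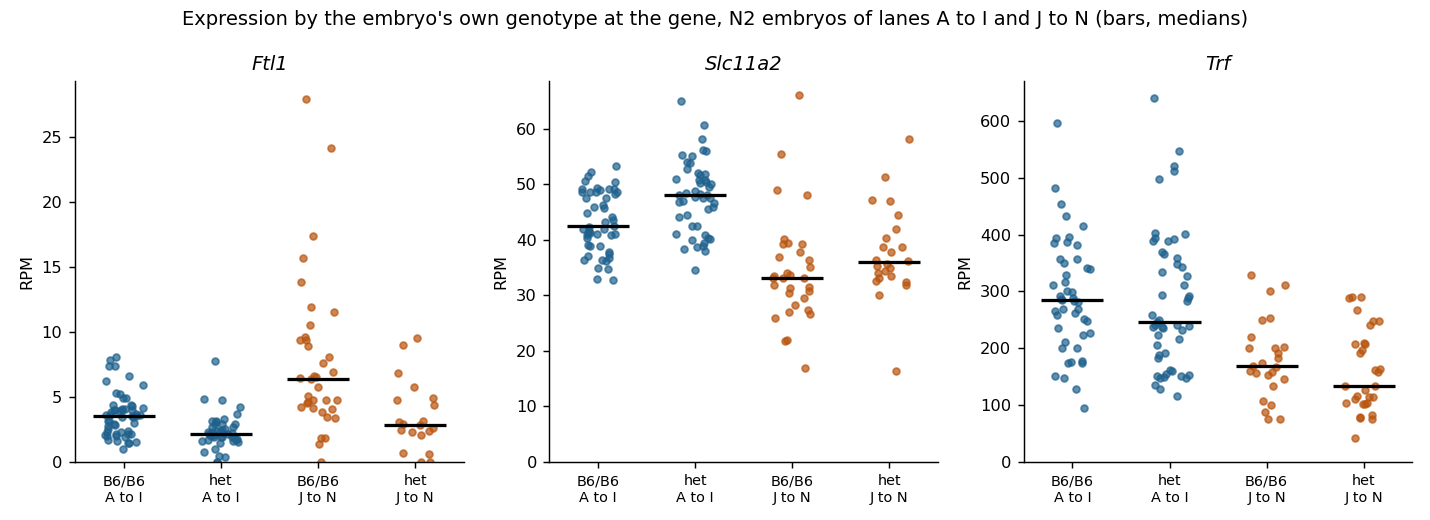
RPM of *Ftl1*, *Slc11a2* and *Trf* by the N2 embryo's own genotype at the gene (B6/B6 or heterozygous), for lanes A to I (blue) and J to N (orange), with medians as bars. *Ftl1* medians are lower in heterozygotes in both lane sets, *Slc11a2* medians are 48.1 against 42.4 RPM in lanes A to I, and *Trf* overlaps throughout.

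Of 27 other iron genes 3 were called by own genotype. *Slc39a14* was higher in heterozygotes by 0.90 (q = 1.51e-16; 0.905 in lanes A to I and 0.37 in J to N, the latter not past the threshold), and *Pcbp2* (-0.22, q = 7.64e-09) and *Smad6* (-0.18, q = 0.00370) were lower. These were called in lanes A to I (-0.19 and -0.21, q = 2.51e-06 and 0.00395) and not in J to N (-0.12 and -0.04, q = 0.221 and 0.769).

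Last, the mean of each lane was taken from the log2(RPM + 1) values of the 154 N2 embryos. The genes that then followed each member most closely by Spearman's rho were read out, as a description over embryos that share lanes and depth. For *Trf* these were the liver secretory genes *Apoc2* (rho = 0.83), *Ambp* (0.81) and *Ttr* (0.81), which kept 0.70 to 0.90 within each lane set. For *Tfrc* they were *Ywhag* (0.58), *Srsf3* (0.56) and *A230046K03Rik* (0.56), and for *Ireb2* *D0H4S114* (0.67), *Srsf3* (0.64) and *Tnks2* (0.64), all lower in lanes A to I than in lanes J to N. *Fth1* was followed by *Acta2* (0.73), *Fez1* (0.71) and *Ppib* (0.70), *Aco1* by *Trim32* (0.56), *Tra2b* (0.53) and *Chmp4b* (0.53), and *Slc11a2* by *Fgfr3* (0.47), *Qtrt1* (0.46) and *E130303B06Rik* (0.46). Each of these was also lower in lanes A to I (0.28 to 0.68) than in lanes J to N (0.50 to 0.88).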

How the data were processed

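Embryos were profiled by 3SEQ. Per the study's methods and the submitters' processing notes, the authors aligned reads with Bowtie2 to mm9 and to a Cast genome made from known SNPs, and discarded reads with a close second placement. The deposited expression tables hold raw read counts per RefSeq gene. The deposited allele tables hold estimated counts, since a read's vote is shared among its SNPs. Genotypes deposited per gene were 1.0 (B6/B6), 0.5 (heterozygous) or 0.0 (not called, 0.541% and left out). The 2 runs of each F1 embryo were in 1 column. Of the N2 columns, 8 matched no labelled sample and were not used, and 6 matched embryos had no genotypes and entered only an alternative.

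Counts were divided by each embryo's total to give RPM. At the median N2 depth 5 RPM is 11.5 reads, and counting error limits lower levels. The main filter was a mean of 5 RPM. F1 litters were compared with edgeR 4.0.16 (quasi-likelihood, TMM, R 4.3.3) and BAFs with limma 3.58.1 after adding 0.5 votes to each allele, at q under 0.05. In N2 embryos, Spearman's correlation with somite number (q under 0.05, for BAF 0.1, at least 20 embryos of 20 votes), the Mann-Whitney test between mothers (Bonferroni-adjusted p under 0.01), an edgeR test of the slope difference, and a rank-sum test by own genotype (q under 0.01) were run over all genes with scipy 1.17.1, numpy 2.4.6 and pandas 2.3.3 in Python 3.11.15. Calls of allele-specific expression needed, beside an adjusted p under 0.01, a BAF below 0.45 or above 0.55. The study's hidden-factor correction was replaced by 15 principal components. Alternatives included DESeq2 1.42.0, other filters, single mothers, lanes and flowcells, and left-out embryos. The tests were tested on simulated data. P-values measure the spread between embryos, which share litters. Those of the binomial tests are the exception, since they pool votes over embryos and do not measure that spread.

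The members, marker lists and other iron genes (51 found) were chosen with earlier results of these data known. All members are described. Of the other iron genes, up to 4 called per direction with the smallest p were named (1 that this rule names is not reported here), and for likeness the 3 genes with the highest rho.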

Additional observations from a re-analysis of the deposited data

Results flagged for a closer look

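In 3 of 42 groups of 4 to 10 F1 embryos, 1 embryo lay far from the rest of its litter, and chance gives such a flag in about 1 of 20 groups. These were *Trf* in embryo 3 of litter 5 (494.5 RPM, high), *Ftl1* in embryo 1 of litter 1 (18.65 RPM, low) and *Slc40a1* in the same embryo (1.1 RPM, high).

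The slope on somite number differed between embryos of F1 and of B6 mothers, by edgeR's test of the difference, for *Trf* (-0.1336 log2 units per somite, adjusted p = 0.00588), *Tfrc* (0.3561, adjusted p = 0.0188), *Slc11a2* (-0.1017, adjusted p = 0.00219), *Aco1* (0.1811, adjusted p = 0.0471) and *Ireb2* (0.3776, adjusted p = 0.0327). With the lane set as a term only *Slc11a2* passed.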

How the results depend on the processing

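Of 684 values of members under alternatives, 625 kept their side of the threshold, 36 no longer passed, 17 newly passed and 6 turned sign. Direction was compared only for values that passed in the main test or in the alternative, so sign changes among values that passed in neither are not counted. The lane sets were separated after the data had been seen. With stage in N2, 1 member was called in the main test, 0 over litter means, 3 in flowcell 1, and 2 each in embryos of F1 mothers, in lanes A to I and in edgeR with mother and lane set. Between mothers 0 members were called, and 1 with Benjamini-Hochberg adjustment, in flowcell 2 (where mother and lane set cannot be told apart), with DESeq2, and with edgeR alone, with somite number, and with somite number and lane set. For slopes 5 were called, 3 with flowcell as a term, 1 with lane set and 0 in lanes A to I. There *Tfrc* (-0.09192 with lane set, -0.1694 in lanes A to I), *Aco1* (-0.004675 and -0.07961) and *Ireb2* (-0.0972 and -0.109) reversed, and the cause was not tested. For the N2 BAF 1 was called, and 0 with 50 votes, lane or litter means, F1 mothers, either flowcell or either lane set, which hold fewer embryos or genes. For allele-specific expression 1 was called, and 0 with 100 votes (where *Ftl1* was not tested) or without lanes J to N. By own genotype 1 was called, 2 with a mean of 1 RPM, and 0 without correction, under B6 mothers, under F1 mothers and in lanes J to N. Leaving out 1 F1 embryo gave 3 to 4 calls in Cast × B6 (26.3% to 41.3% of all genes called), 2 to 5 in B6 × Cast (6.26% to 16.7%) and 1 to 3 between crosses (8.6% to 17.7%). For the F1 BAF in Cast × B6 0 were called, and 2 with votes as weights. No paired analysis was possible because embryo numbers recur across litters of different mothers and name only embryos. Depth limits *Hamp*, *Tfr2* and *Slc40a1*.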
